A study of Mus musculus with 18 samples.

Results

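This comparison sets bone marrow-derived macrophages that lack progranulin against WT macrophages, both in the M1 state. Its members are 6 of the 18 libraries of the study, 3 labelled WT M1 and 3 labelled PGRN knockout M1, and all genes were examined in them. All cells came from C57BL/6 mice and were grown from marrow for 7 days in medium with 10% serum and 10 ng/ml M-CSF, the growth factor that drives marrow cells to become macrophages. Both M1 groups then received 100 ng/ml LPS, a component of the outer membrane of bacteria, with 20 ng/ml interferon gamma for 18 h. The WT M2 and PGRN knockout M2 groups, which are used below for contrast, received 20 ng/ml IL-4 for the same time. The third genotype of the study, labelled a myeloid 14-3-3ε knockout, is given in M1 beside some genes. How the PGRN allele was made, the age of the mice, and whether the 3 libraries of a group are from separate mice are not given in the sources used here, so the p-values reflect how these particular libraries vary, which may be technical.

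Progranulin, encoded by Grn, is a secreted glycoprotein that is also carried to the lysosome, where it is cut into granulins. Its uptake runs through sortilin or together with prosaposin, and loss of progranulin is known for lysosomal storage in neurons and for overactive microglia and macrophages. Lysosome genes share control by the MiT/TFE transcription factors, which are held in the cytoplasm by mTORC1 through Rag GTPases and folliculin and which bind a short E-box called the CLEAR element. The series also concerns TNFR2, a receptor for TNF to which progranulin has been reported to bind.

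The values are normalized read counts, and differences are log2 fold changes, knockout minus WT, with a standard error and n = 3 libraries per group, from limma with p adjusted over 13142 tested genes. A gene was called changed at an adjusted p under 0.05. Depth ran from 5.16 to 51.7 M reads per library, and a single read equals 4.46 normalized counts in WT replicate 1, the shallowest, and 0.465 in the deepest. Between 2 libraries of a group the correlation of log2 values was 0.915 to 0.949 in WT and 0.980 to 0.994 in the knockout. WT replicate 1 stood apart in several measures. It held 1302 normalized counts of Xist, the RNA that silences one X chromosome in female cells, against 39.1 and 6.10 in the other WT libraries and 0 to 4.09 in the knockout. Its Y-linked Ddx3y was 183, against 628 to 688 in the other 5 libraries. Genes with a longest transcript under 1500 bases were higher in WT replicate 1 than the mean of the 6 libraries, by a median of 0.39 on the log2 scale, and genes over 4000 bases lower, by -0.23. In WT replicate 2, ribosomal RNA-like genes took 1.92% of normalized counts, against 0.137 to 0.192% in the others. In the comparison itself the median log2 difference was -0.18 over the 1888 short genes and 0.16 over the 4791 long ones, and -0.06 and 0.09 without WT replicate 1. The part of the Xist, Ddx3y and ribosomal RNA-like measures in the results was not tested. In M2 the 3 WT libraries held 963, 52.6 and 2.06 normalized counts of Xist, so that replicate 1 was the highest in both states.

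In all, 5300 of 13142 genes passed (40.3%), 3098 higher (23.6%) and 2202 lower (16.8%) in the knockout, and over 2-fold 451 were higher (3.43%) and 612 lower (4.66%). The groups did not overlap for 5865 genes (44.6%), of which 4832 were also called (36.8%). That fit takes its error from all 6 groups of the study, and with only the 2 M1 groups, whose WT libraries vary more, 2508 genes passed (19.1%), 1412 higher (10.7%) and 1096 lower (8.34%), and 2451 of the 2508 were among the 5300 (18.7%). Below, list counts with the 2 M1 groups alone are the genes called in both fits, which leaves out genes that passed only with the 2 groups. These counts and those without WT replicate 1 are given as 2 numbers, the genes higher and the genes lower. Over all genes tested they were 1378 and 1073 in both fits, and 2683 and 1892 without WT replicate 1. Scaling by library totals gave 1873 higher and 2691 lower genes, so that 41.0% of calls were higher in place of 58.5%, with no called gene reversed. Each list is set against a median of 0.05 over all genes tested. The lists were assembled with earlier results of these data known.

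Grn was nearly lost in the knockout libraries. It stood at 91070.0, 81989 and 91739 normalized counts in WT and 497, 212 and 231 in the knockout, with no overlap, a fall of 303-fold (-8.24 ± 0.22, adjusted p = 2.2e-12). The gene lies on the plus strand of chromosome 11 at 102430315 to 102437048 (GRCm38, GENCODE M21). Among the knockout libraries replicate 1 held the highest residual level. Of the 20 protein-coding genes nearest to Grn, 10 on each side, 14 were tested, 3 rose (Atxn7l3, Gpatch8 and Ccdc43) and 3 fell (Ubtf, Fzd2 and Gjc1). These 6 are 42.9% of those tested, near the 40.3% over all genes, and with the 2 M1 groups alone 0 of the risers and 3 of the fallers passed.

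The genes of prosaposin and sortilin, which carry progranulin to the lysosome, rose in its absence. Psap, which encodes prosaposin, the precursor of the saposins and a carrier of progranulin, was 156767, 136895 and 161604 normalized counts in WT and 366624, 393939 and 379854 in the knockout. Every knockout library was above every WT library, a rise of 2.51-fold (1.33 ± 0.10, adjusted p = 3.6e-07). Sort1, the gene of the progranulin receptor sortilin, rose as well, from 308, 404 and 402 to 612, 632 and 662 (0.78 ± 0.11, adjusted p = 5.07e-05). Mmp12 (0.70 ± 0.15, adjusted p = 0.00177), a macrophage elastase, was a further riser. The lysosomal membrane gene Tmem106b, a modifier of disease caused by progranulin loss, did not pass (0.17 ± 0.09, adjusted p = 0.113). Among 15 tested progranulin partners 5 rose (33.3%) and 2 fell (13.3%), beside 23.6% and 16.8% of all genes tested. The median was 0.17, and Grn was 1 of the 2 that fell. The other was Prtn3, a neutrophil protease gene (-1.76 ± 0.66, adjusted p = 0.0453), whose call was lost with the 2 M1 groups alone (adjusted p = 0.0573) and without WT replicate 1 (adjusted p = 0.195).

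Genes for lysosomal enzymes rose broadly. Over the 4 lysosome lists together 73 of 105 tested members rose, 3 fell and 29 did not pass, with a median log2 difference of 0.49. With only the 2 M1 groups in the fit 63 of the 73 and 2 of the 3 remained, and without WT replicate 1 the counts were 82 and 3. Among lysosomal proteases 13 of 16 tested members rose, 2 fell and 1 did not pass (median 0.60). Ctsd, an aspartic protease, was 145013, 124229 and 163780.5 normalized counts in WT and 299977, 260293 and 298436 in the knockout (0.99 ± 0.13, adjusted p = 4.31e-05), and Ctsb, a cysteine protease, was 156839, 190475 and 214386 normalized counts in WT and 365325, 349847 and 365583 in the knockout (0.96 ± 0.10, adjusted p = 7.39e-06). In both genes all knockout libraries exceeded all WT libraries. The tripeptidyl peptidase gene Tpp1 (1.06 ± 0.19, adjusted p = 0.000593), the dipeptidyl peptidase gene Dpp7 (0.76 ± 0.09, adjusted p = 1.32e-05) and Lgmn, the gene of legumain, an asparaginyl endopeptidase (0.65 ± 0.08, adjusted p = 3.67e-05), rose with them. The 2 that fell were Ctsf, from 1137, 1086 and 1064 to 479, 615 and 483 (-1.07 ± 0.12, adjusted p = 1.01e-05), and Ctsk, a collagen-cutting protease best known from osteoclasts (-0.82 ± 0.22, adjusted p = 0.00926). Together the 16 protease genes took 2.48 to 2.95% of normalized counts in WT libraries and 4.24 to 4.54% in knockout libraries.

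Among hydrolases of glycans, lipids and nucleic acids 28 of 40 tested members rose, 0 fell and 12 did not pass (median 0.60), and 26 of the 28 also passed with the 2 M1 groups alone. Pld3, an exonuclease of the endolysosome, was 9181, 8256 and 9994 normalized counts in WT and 19841, 18486 and 19729.7 in the knockout (1.08 ± 0.09, adjusted p = 5.39e-07). Lipa, the acid lipase that frees cholesterol from its esters, was 4383, 6909 and 7189.8 normalized counts in WT and 14857, 13927 and 15612 in the knockout (1.3 ± 0.15, adjusted p = 1.07e-05). The knockout libraries of both genes lay close together and above all WT libraries. Gla, which encodes alpha-galactosidase A (0.78 ± 0.08, adjusted p = 7.36e-06), and Galns, a sulfatase of keratan sulfate (0.80 ± 0.08, adjusted p = 5.33e-06), were further members.

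Lysosomal membrane genes followed with 19 of 31 tested members higher, 1 lower and 11 not passing (median 0.46, 17 and 0 with the 2 M1 groups alone). Gpnmb, a glycoprotein that gathers on stressed lysosomes, was 48957, 67904 and 81910.0 normalized counts in WT and 240905, 212918 and 248974 in the knockout, a rise of 3.61-fold (1.85 ± 0.20, adjusted p = 6.86e-06). Clcn7, the chloride-proton exchanger, was 4468, 4910.2 and 5626 normalized counts in WT and 13067, 11245 and 12507 in the knockout (1.3 ± 0.10, adjusted p = 4.56e-07), and the amino acid transporter gene Slc36a1 was 682, 992 and 951 normalized counts in WT and 1786, 1683 and 1869.6 in the knockout (1.04 ± 0.12, adjusted p = 9.26e-06). In each of the 3 genes the groups did not overlap. Npc1, which exports cholesterol (1.18 ± 0.17, adjusted p = 8.45e-05), the arginine sensor gene Slc38a9 (0.78 ± 0.09, adjusted p = 9.33e-06), the Batten disease gene Cln3 (0.73 ± 0.08, adjusted p = 1.07e-05) and Lamp1 (0.46 ± 0.08, adjusted p = 0.000333) rose too. Of V-ATPase subunits, which acidify the lysosome, 13 of 18 tested members rose, 0 fell and 5 did not pass (median 0.37). With only the M1 groups 8 of the 13 remained, and without WT replicate 1 all 18 were higher. Atp6v0d2, a macrophage and osteoclast subunit, was 499, 500.3 and 671 normalized counts in WT and 1958, 2107 and 2021 in the knockout, a rise of 3.67-fold (1.88 ± 0.11, adjusted p = 5.55e-08). The widely used subunit gene Atp6v1a rose by less (0.91 ± 0.11, adjusted p = 1.65e-05).

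**Figure D1:**
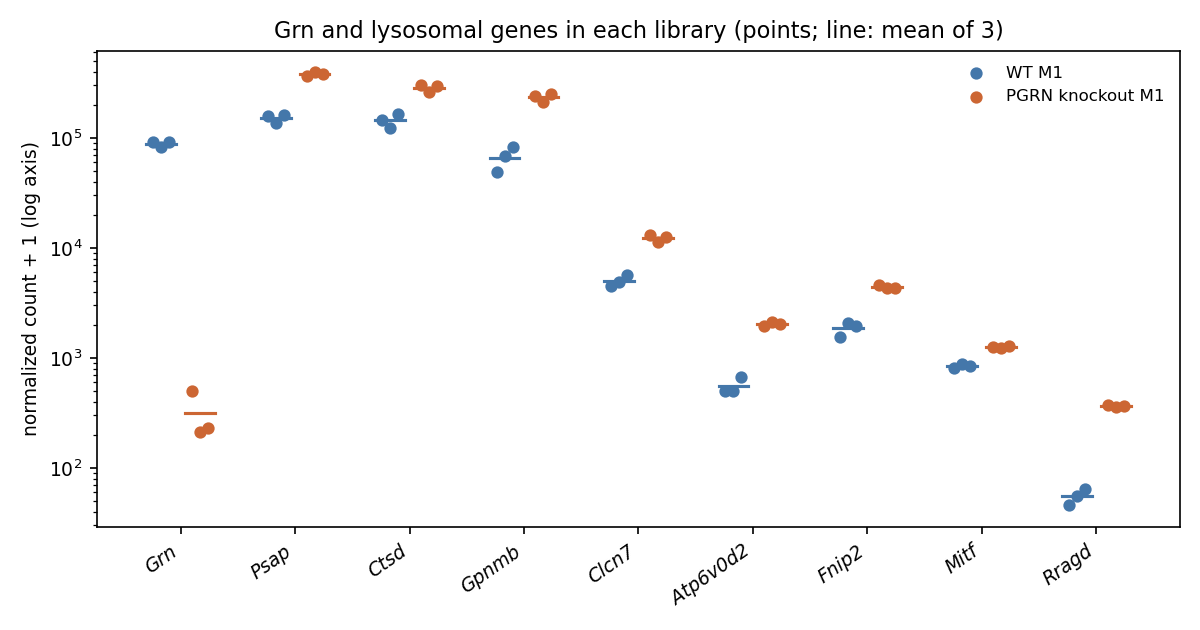
Normalized counts plus 1 on a log axis for Grn and 8 genes of the lysosome and its regulators, with 1 point per library and a line at the mean of the 3 libraries of each group. Only Grn is lower in PGRN knockout M1 (orange), and in each of the other 8 genes all 3 knockout points are above all 3 WT M1 points (blue).

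The regulators of the lysosome genes changed selectively. Rragd, a Rag GTPase that ties amino acid supply to mTORC1 and to the MiT/TFE factors, was 44.6, 54.1 and 64.0 normalized counts in WT and 374, 354 and 365 in the knockout, a rise of 6.68-fold (2.74 ± 0.18, adjusted p = 1.14e-07). Fnip2, the partner of folliculin, was 1565, 2082 and 1941 normalized counts in WT and 4573, 4300.4 and 4354 in the knockout (1.25 ± 0.14, adjusted p = 1.08e-05), and folliculin itself, Flcn, rose by less (0.49 ± 0.07, adjusted p = 9.41e-05), as did Rragc (0.55 ± 0.06, adjusted p = 5.5e-06). Of the factors themselves Mitf rose (0.58 ± 0.10, adjusted p = 0.000283), Tfe3 did not pass (0.14 ± 0.07, adjusted p = 0.149), and Tfeb passed (0.39 ± 0.14, adjusted p = 0.0439) but its libraries overlapped and its call was lost with the 2 M1 groups alone (adjusted p = 0.165). Over this list 12 of 24 tested members rose, 1 fell and 11 did not pass (median 0.36, with 9 and 0 remaining with the 2 M1 groups alone, and 12 and 0 without WT replicate 1). Among autophagy genes 18 of 32 tested members rose, 2 fell and 12 did not pass, with a median of 0.35, which was 0.18 without WT replicate 1, and 13 and 1 remained with the 2 M1 groups alone. The autophagy receptor gene Sqstm1 was 11514, 10343 and 11271 normalized counts in WT and 23305, 21758 and 23025 in the knockout (1.04 ± 0.08, adjusted p = 2.53e-07), and Tecpr1, which acts in autophagosome fusion, was 1057, 978 and 972 normalized counts in WT and 2007, 1905 and 1809.7 in the knockout (0.93 ± 0.08, adjusted p = 6.6e-07). Neither gene's groups overlapped, and Gabarapl1 (0.70 ± 0.09, adjusted p = 2.86e-05) and Tax1bp1 (0.58 ± 0.07, adjusted p = 1.06e-05) also rose.

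The promoters of 4 lysosome genes that rose are shown because they hold the CLEAR core in the form TCACGTGA. Each runs from 150 bases before to 20 bases after a RefSeq transcript start on GRCm38.p6, 5′ to 3′ on the gene's strand, with the match in capitals. The windows are chr17:25133241-25133410 (plus strand) for Clcn7, chr7:142387808-142387977 (minus strand) for Ctsd, chr11:55204190-55204359 (plus strand) for Slc36a1 and chr7:126583217-126583386 (minus strand) for Cln3.
Clcn7: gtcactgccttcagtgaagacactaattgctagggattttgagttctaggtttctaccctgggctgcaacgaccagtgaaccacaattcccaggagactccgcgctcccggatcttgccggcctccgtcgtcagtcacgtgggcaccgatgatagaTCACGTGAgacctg
Ctsd: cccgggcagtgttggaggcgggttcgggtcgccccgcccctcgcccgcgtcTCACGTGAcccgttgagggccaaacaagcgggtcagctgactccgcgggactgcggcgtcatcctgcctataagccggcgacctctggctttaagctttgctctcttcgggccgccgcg
Slc36a1: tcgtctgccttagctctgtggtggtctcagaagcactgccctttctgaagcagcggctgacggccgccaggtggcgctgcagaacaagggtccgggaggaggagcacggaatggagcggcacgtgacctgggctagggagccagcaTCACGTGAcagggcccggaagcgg
Cln3: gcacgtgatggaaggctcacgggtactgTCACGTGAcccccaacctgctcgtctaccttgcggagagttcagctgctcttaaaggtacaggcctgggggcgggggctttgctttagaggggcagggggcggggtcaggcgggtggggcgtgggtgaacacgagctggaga
The match begins at base 7 of the transcript in Clcn7, and 99, 4 and 122 bases before the start in Ctsd, Slc36a1 and Cln3. In the full RefSeq window of 250 bases before to 50 after each start, the hexamer CACGTG was found in 8.09% of 27025 genes with a promoter and in 11.8% of 9442 tested genes. It was found in 25% of the 84 lysosome genes that have a promoter in the table, of 105 tested. The longer TCACGTGA, which contains CACGTG, was in 1.12%, 2.26% and 13.1% of the same groups. In the 56 of the 84 lysosome genes that rose the shares were 26.8% and 16.1%, beside 25% and 13.1% of all 84. Whether the motif goes with the rise was not tested. Both motifs read the same on both strands, so each search covers both. Among all tested genes with a promoter CACGTG was present in 13.5% of the 2318 that rose and 10.5% of the 1593 that fell. A match says only that the letters are present, and binding was not measured here. The windows of Rragd, Gpnmb and Psap do not hold CACGTG, while that of Ctsf, which fell, does.

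Lipid-handling genes rose beside the lysosome. In the list of lipid-associated macrophage genes, which mark macrophages loaded with lipid and debris, 18 of 24 tested members rose, 1 fell and 5 did not pass, with a median of 0.80. Clec7a, the beta-glucan receptor dectin-1, was 276, 331 and 338 normalized counts in WT and 1185, 1399 and 1079 in the knockout (1.95 ± 0.16, adjusted p = 5.39e-07). Itgax, the integrin CD11c, was 491, 475 and 609.6 normalized counts in WT and 1884, 1329.7 and 2161 in the knockout (1.75 ± 0.15, adjusted p = 9.86e-07), and Fabp5, a fatty acid carrier, was 8481, 9237 and 15492 normalized counts in WT and 36869, 38253 and 35393 in the knockout (1.79 ± 0.17, adjusted p = 2.71e-06). The groups did not overlap in any of the 3. Trem2 (0.81 ± 0.15, adjusted p = 0.000575), a lipid receptor, and Spp1 (0.61 ± 0.12, adjusted p = 0.000813) rose by less, while Apoe (0.56 ± 0.25, adjusted p = 0.0879) and the lipoprotein lipase gene Lpl (0.20 ± 0.12, adjusted p = 0.184) did not pass, and the tetraspanin gene Cd9 fell, at 2729, 3366 and 2822 normalized counts in WT and 1747, 2097 and 1758 in the knockout (-0.67 ± 0.11, adjusted p = 0.000196). Of LXR targets, which answer to oxysterols, 14 of 18 tested members rose, 0 fell and 4 did not pass (median 0.58). Abcg1, a cholesterol exporter, was 2065, 1995 and 2002 normalized counts in WT and 6309.6, 6614 and 6096 in the knockout, the groups being well apart (1.65 ± 0.09, adjusted p = 1.42e-08). Abca1 (1.44 ± 0.21, adjusted p = 0.000105), Arl4c (0.55 ± 0.08, adjusted p = 8.13e-05) and the LXR gene Nr1h3 itself (0.60 ± 0.14, adjusted p = 0.00349) rose with it. Genes of cholesterol synthesis and uptake, usually regulated against efflux, were higher at the same time, and 16 of 25 tested members rose, 2 fell and 7 did not pass (median 0.61).

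Several of the largest rises lay outside these lists. Hal, which encodes the enzyme that breaks down histidine, was 22.3, 1.5 and 3.05 normalized counts in WT and 808, 1447 and 826 in the knockout, close to absent in WT (7.32 ± 0.73, adjusted p = 7.25e-06). Cd4 was 71.3, 147 and 146 normalized counts in WT and 1209, 1258 and 1015 in the knockout (3.31 ± 0.50, adjusted p = 0.000165), with no overlap, while the T and NK cell markers together took at most 0.00128% of normalized counts in any of the 6 libraries. Mgll, the monoacylglycerol lipase gene, was 116, 82.6 and 119 normalized counts in WT and 622, 625 and 582 in the knockout (2.53 ± 0.18, adjusted p = 1.64e-07). The lipid-binding inhibitory receptor gene Cd300lf (2.42 ± 0.30, adjusted p = 2.91e-05) and Clec14a (2.52 ± 0.22, adjusted p = 1.26e-06) were among the 12 largest, as was Rragd, given above. So were the serpin genes Serpina3i (4.47 ± 0.31, adjusted p = 1.64e-07), Serpina3h (3.42 ± 0.31, adjusted p = 1.85e-06), Serpina3g (3.25 ± 0.35, adjusted p = 1.34e-05) and Serpina3f (2.85 ± 0.41, adjusted p = 0.000111), near copies whose reads may be shared between them. Rps3a2, a copy of a ribosomal protein gene and also among the 12, did not pass with the 2 M1 groups alone (adjusted p = 0.0673).

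Genes of redox and iron handling moved with them. Among NRF2 and oxidative stress genes 16 of 22 tested members rose, 3 fell and 3 did not pass (median 0.62, 12 and 1 with the 2 M1 groups alone). The catalase gene Cat was 1079, 1608 and 1829 normalized counts in WT and 3589, 3571 and 3709 in the knockout (1.3 ± 0.14, adjusted p = 6.05e-06), and G6pdx, the first enzyme of the pentose phosphate path, was 3023, 3741 and 4136 normalized counts in WT and 7299.8, 6880.1 and 7649 in the knockout (1.01 ± 0.10, adjusted p = 4.87e-06). Both separated the groups fully, whereas Me1, the malic enzyme gene, fell (-0.89 ± 0.08, adjusted p = 2.2e-06). Of iron genes 10 of 18 tested members rose, 1 fell and 7 did not pass (median 0.38, 7 and 0 with the 2 M1 groups alone). Ncoa4, which delivers ferritin to the lysosome, was 1609.8, 2484 and 2292 normalized counts in WT and 7118, 6123 and 7348 in the knockout (1.71 ± 0.13, adjusted p = 3.6e-07), and the heme oxygenase gene Hmox1 (0.91 ± 0.15, adjusted p = 0.000226), the iron exporter gene Slc40a1 (2.30 ± 0.34, adjusted p = 0.000143), the transferrin receptor gene Tfrc (0.80 ± 0.13, adjusted p = 0.000304) and the phagosomal metal transporter gene Slc11a1 (0.72 ± 0.11, adjusted p = 0.000209) rose. Cybb, the catalytic subunit of the phagocyte oxidase, was 10033, 14568 and 18153 normalized counts in WT and 34255, 24547 and 36459 in the knockout (1.18 ± 0.18, adjusted p = 0.000181). In the list of arginine, nitric oxide, itaconate and oxidant enzymes 10 of 21 tested members rose, 1 fell and 10 did not pass, with 7 and 0 remaining with the 2 M1 groups alone and 12 and 0 without WT replicate 1. Nos2, the inducible nitric oxide synthase that marks the M1 state, was 348, 368 and 326 normalized counts in WT and 538, 588 and 495 in the knockout. Its groups did not overlap, yet it did not pass (0.63 ± 0.47, adjusted p = 0.301), while it passed with the 2 M1 groups alone (adjusted p = 0.0117). The M2 marker gene Arg1 was low in all 6 libraries, at 143, 159 and 73.1 normalized counts in WT and 51.1, 69.7 and 26.0 in the knockout (-1.37 ± 0.41, adjusted p = 0.0165), and its fall was lost with the 2 M1 groups alone (adjusted p = 0.0678).

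Genes of the TNF pathway, which the series addresses, changed by small amounts, with log2 differences from -0.40 to 0.61. Tnf was 2042, 1974 and 2197 normalized counts in WT and 2357, 2072 and 2359 in the knockout, with overlapping groups, and did not pass (0.13 ± 0.15, adjusted p = 0.524). Tnfrsf1b, the gene of TNFR2, was 12232, 11705 and 11649 normalized counts in WT and 19461, 14886 and 19148 in the knockout, a rise of 1.49-fold (0.58 ± 0.12, adjusted p = 0.00174). Tnfrsf1a, the gene of TNFR1, did not pass (0.09 ± 0.06, adjusted p = 0.245), nor did Ywhae, which encodes 14-3-3ε (-0.11 ± 0.08, adjusted p = 0.291). Among TNF receptors and signalling genes 13 of 27 tested members rose (48.1%), 1 fell (3.70%) and 13 did not pass, beside 23.6% and 16.8% of all genes tested. The median was 0.20, and 11 and 0 passed without WT replicate 1. With the 2 M1 groups alone only 4 of the 13 and 0 of the 1 remained. Among the 4 were the caspase-8 inhibitor gene Cflar (0.61 ± 0.09, adjusted p = 0.000146), Tnfaip3, which restrains NF-kB (0.50 ± 0.10, adjusted p = 0.00133), and Tnip1 (0.41 ± 0.08, adjusted p = 0.00146). Among NF-kB subunits, inhibitors and targets 7 of 35 tested members rose, 5 fell and 23 did not pass (4 and 2 with the 2 M1 groups alone), a share near the background in both directions, with the adhesion gene Icam1 higher (1.03 ± 0.16, adjusted p = 0.000216).

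Secreted inflammatory genes did not move as one. Among cytokines 6 of 26 tested members rose, 7 fell and 13 did not pass (median -0.01, and 0.07 without WT replicate 1). These are 23.1% higher and 26.9% lower, beside 23.6% and 16.8% of all genes tested, so the share that rose is near the background. Il1b was 2060.1, 1261 and 1103 normalized counts in WT and 720.2, 665 and 621 in the knockout, a fall of 2.13-fold (-1.09 ± 0.28, adjusted p = 0.00708), whereas Il1a was 544, 595 and 424 normalized counts in WT and 1530.3, 1564 and 1412 in the knockout, a rise of 2.91-fold (1.54 ± 0.38, adjusted p = 0.00557). The groups were apart in both, in opposite directions. Csf3, the neutrophil growth factor gene, was 40.1, 40.6 and 30.5 normalized counts in WT and 0, 4.98 and 1.86 in the knockout, on few reads (-3.87 ± 0.66, adjusted p = 0.000344). Csf1 (-0.82 ± 0.12, adjusted p = 0.000105), Vegfa (-0.79 ± 0.12, adjusted p = 0.000168) and Tnfsf9 (-1.40 ± 0.21, adjusted p = 0.000143) also fell, and Il10 did not pass (-0.66 ± 0.33, adjusted p = 0.117), though it did with the 2 M1 groups alone (adjusted p = 0.0266). Il6 (22.3, 30.1 and 15.2 normalized counts in WT and 16.4, 14.9 and 10.2 in the knockout) and Il12b (4.46, 3.01 and 0 normalized counts in WT and 22.5, 17.4 and 19.5 in the knockout) were too low to be tested. No chemokine rose, 9 of 19 tested fell and 10 did not pass, with a median of -0.56. With the 2 M1 groups alone 6 of the 9 remained, and without WT replicate 1 the count of lower chemokines was 4. Of the 19 chemokines 9 have a longest transcript under 1500 bases and 0 one over 4000 bases. The remaining genotype of the study in M1, set against the same WT libraries, had 2 of the 19 higher and 9 lower (median -0.55). Pf4, the platelet factor 4 gene, was 2649, 1881 and 2115 normalized counts in WT and 432, 525 and 384 in the knockout (-2.30 ± 0.16, adjusted p = 1.58e-07). The monocyte attractant genes Ccl7, at 24543, 17934 and 17351 normalized counts in WT and 7500.3, 11969.9 and 6158 in the knockout (-1.26 ± 0.22, adjusted p = 0.000427), and Ccl12 (-1.23 ± 0.21, adjusted p = 0.000421) fell, as did Cxcl14 (-1.72 ± 0.31, adjusted p = 0.000661). Markers of stromal cells, given further on, were lower in the same libraries. Ccl2 passed (-0.47 ± 0.16, adjusted p = 0.0297) but not with the 2 M1 groups alone (adjusted p = 0.105), and the interferon-induced Cxcl9 (-0.22 ± 0.54, adjusted p = 0.775) and Cxcl10 (-0.02 ± 0.47, adjusted p = 0.98) did not pass.

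**Figure D2:**
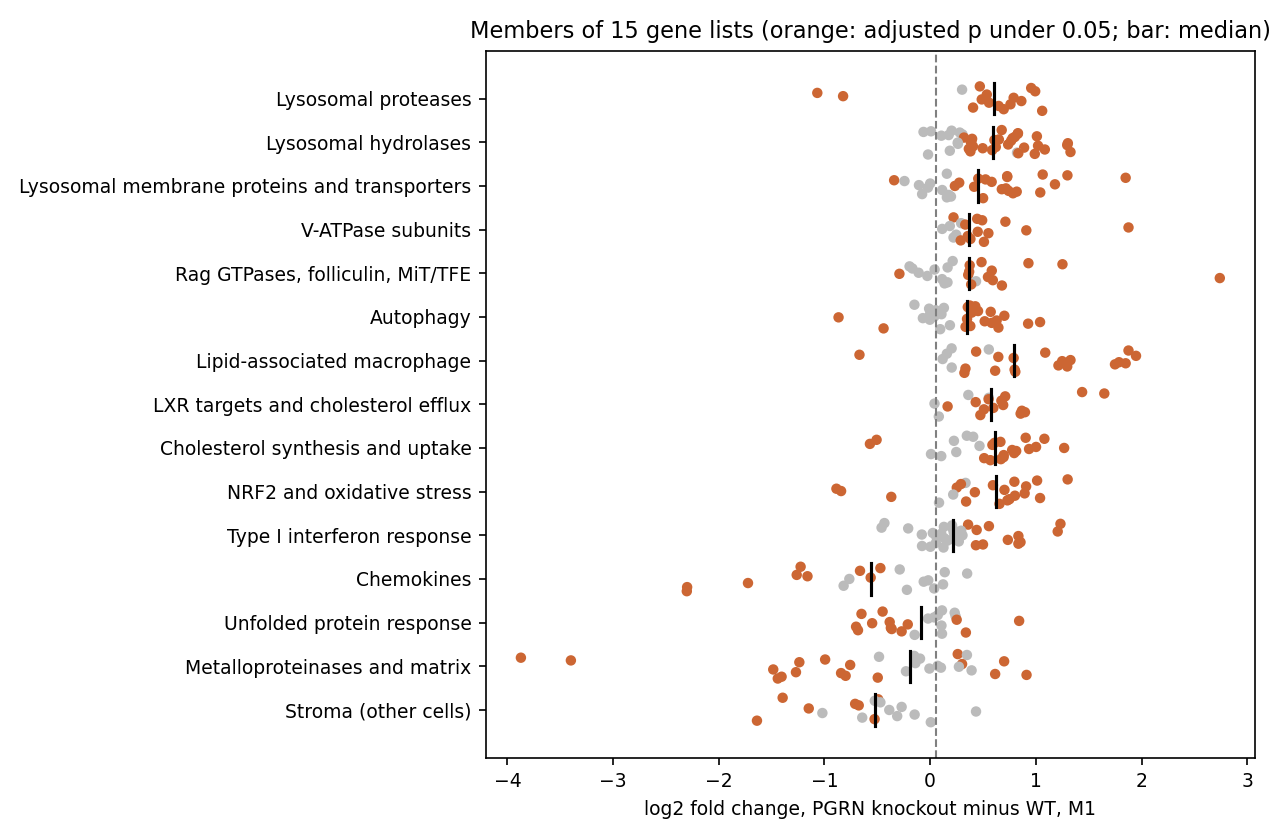
Each point is a tested member of 1 of 15 gene lists, without Grn, placed by its log2 fold change in M1, PGRN knockout minus WT. Orange points passed, grey points did not, the bar is the list's median and the dashed line the median of all genes tested at 0.05, from which the lysosome, lipid and NRF2 lists lie to the right and the chemokine and stroma lists to the left.

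Interferon genes were higher in part. Of type I interferon response genes 11 of 33 tested members rose, 0 fell and 22 did not pass (median 0.22), and of interferon gamma response genes and GTPases 10 of 29 tested members rose, 0 fell and 19 did not pass (median 0.22, and 0.33 without WT replicate 1). These are 33.3% and 34.5% higher, beside 23.6% of all genes tested, and 10 and 8 remained with the 2 M1 groups alone. Without WT replicate 1 the counts of higher genes were 14 and 12. Ifit2 was 13208, 16433 and 16369.8 normalized counts in WT and 35836, 35748 and 34146 in the knockout (1.21 ± 0.14, adjusted p = 1.48e-05). Cd274, the gene of the checkpoint ligand PD-L1, was 4892, 5478 and 5133 normalized counts in WT and 11870.3, 13011 and 11537 in the knockout (1.23 ± 0.14, adjusted p = 9.11e-06). These 2 genes had no overlap between groups, and Cmpk2 (1.23 ± 0.16, adjusted p = 3.31e-05), Oas3 (0.73 ± 0.12, adjusted p = 0.000273), Irf8 (0.82 ± 0.09, adjusted p = 1.06e-05) and the GTPase genes Gbp2 (0.89 ± 0.17, adjusted p = 0.000996) and Irgm1 (0.47 ± 0.09, adjusted p = 0.000597) rose as well. Among co-stimulatory and checkpoint ligands 6 of 15 rose (40.0%) and 2 fell (13.3%), beside 23.6% and 16.8% of all genes tested. With the 2 M1 groups alone 4 and 2 remained. Havcr2, the gene of TIM-3 (1.45 ± 0.28, adjusted p = 0.000944), and its ligand gene Lgals9 (0.65 ± 0.09, adjusted p = 3.47e-05) were higher. Cd86 did not pass (0.67 ± 0.26, adjusted p = 0.0524), though it did with the 2 M1 groups alone (adjusted p = 0.0218). Among 9 tested MHC class II presentation genes 2 rose, the cathepsin gene Ctss (0.86 ± 0.14, adjusted p = 0.000195) and the thiol reductase gene Ifi30 (0.35 ± 0.10, adjusted p = 0.0112), the latter not with the 2 M1 groups alone (adjusted p = 0.0945). That share, 22.2%, is near the 23.6% of all genes tested.

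Receptors for microbes and for dying cells were higher in many cases. Among Toll-like, C-type lectin and Fc receptors 19 of 29 tested members rose, 1 fell and 9 did not pass (median 0.50, 13 of the 19 with the 2 M1 groups alone, 18 and 0 without WT replicate 1). Tlr13, a sensor of bacterial ribosomal RNA, was 2742, 3284 and 3258 normalized counts in WT and 6669.6, 5902 and 6778 in the knockout (1.06 ± 0.17, adjusted p = 0.000262). Tlr8 was 143, 745 and 655 normalized counts in WT and 1494, 1198 and 1612 in the knockout (1.79 ± 0.44, adjusted p = 0.00613), and Tlr9 was 312, 1172 and 1015 normalized counts in WT and 2226, 1790.4 and 2077 in the knockout (1.49 ± 0.37, adjusted p = 0.00553). WT replicate 1 was far below the other WT libraries in both, and with the 2 M1 groups alone neither passed (adjusted p = 0.107 for Tlr8 and 0.0824 for Tlr9). Of inflammasome and cell death genes 13 of 20 tested members rose, 1 fell and 6 did not pass (median 0.49). The DNA sensor gene Aim2 was 406, 364 and 418 normalized counts in WT and 665, 632 and 684 in the knockout (0.74 ± 0.08, adjusted p = 6.61e-06), and Casp1 (0.62 ± 0.07, adjusted p = 1.8e-05), Naip2 (0.96 ± 0.12, adjusted p = 2.55e-05) and Naip5 (0.84 ± 0.14, adjusted p = 0.000242) rose, the Naip genes being a family of near copies. Among efferocytosis receptors and bridging ligands 10 of 23 tested members rose, 4 fell and 9 did not pass. Mertk, a receptor for dying cells, was 589, 1119 and 1128 normalized counts in WT and 3198, 3446 and 3367 in the knockout (1.88 ± 0.19, adjusted p = 4.12e-06), while its bridging ligands Gas6, at 9359.8, 10316 and 8842 normalized counts in WT and 5219, 5857 and 4404 in the knockout (-0.89 ± 0.14, adjusted p = 0.00016), and Pros1 (-0.79 ± 0.09, adjusted p = 1.01e-05) fell, so that receptor and ligand genes moved in opposite directions. The integrin gene Itgb5 fell too (-0.57 ± 0.07, adjusted p = 1.17e-05).

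Complement genes were lower for 6 of 19 tested members and higher for 4 (median -0.19, and -0.43 without WT replicate 1). These are 31.6% lower and 21.1% higher, beside 16.8% and 23.6% of all genes tested. Serping1, which encodes the C1 inhibitor, was 29016, 34909 and 30311 normalized counts in WT and 12527, 18369 and 11614 in the knockout (-1.17 ± 0.17, adjusted p = 9.71e-05), and C2 fell (-1.14 ± 0.25, adjusted p = 0.00231). C1qa was 33288, 20442 and 26147 normalized counts in WT and 14978, 19659 and 17019 in the knockout (-0.61 ± 0.20, adjusted p = 0.0255). It did not pass with the 2 M1 groups alone (adjusted p = 0.0628) or without WT replicate 1 (adjusted p = 0.124). C1qb (-0.66 ± 0.28, adjusted p = 0.0744), C1qc (-0.19 ± 0.17, adjusted p = 0.399) and C3 (0.14 ± 0.20, adjusted p = 0.599) did not pass. The complement receptor subunit Itgb2 (1.0 ± 0.15, adjusted p = 0.000146) rose, as did Cd93 (0.78 ± 0.14, adjusted p = 0.000624).

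A larger share of matrix genes fell than rose. Among metalloproteinases, inhibitors and matrix genes 5 of 28 tested members rose, 12 fell and 11 did not pass (median -0.19, and -0.39 without WT replicate 1, 3 and 11 with the 2 M1 groups alone). Timp1, an inhibitor of metalloproteinases, was 43259, 27567 and 26117 normalized counts in WT and 11839.6, 12789 and 11050.5 in the knockout (-1.41 ± 0.15, adjusted p = 5.74e-06), and the collagenase gene Mmp13 was 16878, 23406 and 18539.9 normalized counts in WT and 8165, 9686 and 7057 in the knockout (-1.24 ± 0.19, adjusted p = 0.000162). Both were lower in every knockout library than in any WT library. Comp, a cartilage matrix protein gene, was 326, 344 and 244 normalized counts in WT and 18.4, 32.4 and 12.6 in the knockout (-3.87 ± 0.27, adjusted p = 1.64e-07), and Mfap5, of elastic fibres, was 232, 239 and 183 normalized counts in WT and 14.3, 27.4 and 19.1 in the knockout (-3.40 ± 0.25, adjusted p = 2.12e-07). These 2 stood among the 12 largest falls with Fndc1 (-2.86 ± 0.34, adjusted p = 1.77e-05), the proteoglycan gene Prelp (-2.67 ± 0.31, adjusted p = 2.07e-05), the growth factor gene Bmp4 (-2.63 ± 0.40, adjusted p = 0.000195) and Myo1h (-3.14 ± 0.67, adjusted p = 0.00195). Plac9a (-6.57 ± 1.04, adjusted p = 0.000244) and Plac9b (-4.24 ± 0.38, adjusted p = 2.51e-06) are near-identical copies, and Syn3 (-6.42 ± 1.36, adjusted p = 0.00207) overlaps Timp3, which may share its reads. Eno1b (adjusted p = 0.152) and Rpgrip1 (adjusted p = 0.0717) did not pass with the 2 M1 groups alone.

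Markers of stromal cells moved in the same direction. Of the 17 stroma markers, all tested, 0 rose, 7 fell and 10 did not pass (median -0.52), with 4 of the 7 remaining with the 2 M1 groups alone, and without WT replicate 1 the number lower was 12. Their summed level was 1.92 to 3.23% of normalized counts in WT libraries and 1.47 to 1.70% in knockout libraries, which do not overlap. Tagln, an actin-binding protein of smooth muscle and myofibroblasts, was 17154, 14026 and 15739 normalized counts in WT and 4929, 5274 and 4816 in the knockout (-1.64 ± 0.10, adjusted p = 8.23e-08), and Acta2 was 20570.2, 24961 and 23173 normalized counts in WT and 8609, 8170.0 and 9286 in the knockout (-1.40 ± 0.12, adjusted p = 9.45e-07). The chemokine gene Cxcl12 (-1.15 ± 0.25, adjusted p = 0.00234) and Bgn (-0.49 ± 0.12, adjusted p = 0.00528) also fell, and Col1a1 did not pass (-0.52 ± 0.20, adjusted p = 0.0507). The part of stromal cells in the matrix, chemokine and complement results and in the falls of Gas6 and Pros1 was not tested. In bulk RNA fewer cells of a type cannot be told apart from less RNA per cell. Markers of neutrophils fell for 3 of 10 tested genes and B and plasma cell markers for 5 of 8, of which 2 and 1 remained with the 2 M1 groups alone. Without WT replicate 1, 0 of the neutrophil markers and 1 of the B and plasma cell markers was lower. Neutrophil markers summed to 0.0162 to 0.0367% in WT and 0.00583 to 0.0136% in the knockout, with Ly6g at 0 reads in all 6, and B and plasma cell markers to 0.025 to 0.0377% and 0.0135 to 0.0236%. Of macrophage identity genes 10 of 20 tested members rose, 2 fell and 8 did not pass (8 and 1 without WT replicate 1), with Cd68 (1.06 ± 0.11, adjusted p = 6.86e-06), the siglec gene Cd33 (1.34 ± 0.13, adjusted p = 3.69e-06) and the pore-forming protein gene Mpeg1 (1.25 ± 0.14, adjusted p = 9.33e-06) higher. Log2 differences in this list ran from -0.595 to 1.88, and 8 of the risers and 2 of the fallers remained with the 2 M1 groups alone. Lyz2, a macrophage marker high in every library, was 172932, 235900.1 and 299713 normalized counts in WT and 330483, 305368 and 359806 in the knockout. It did not pass (0.52 ± 0.44, adjusted p = 0.367). The summed level of the macrophage identity genes was 1.65 to 2.52% in WT, lowest in replicate 1, and 2.61 to 3.04% in the knockout, which do not overlap. The part of the share of macrophages in the lysosome, lipid, receptor and other rises was not tested either.

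**Figure D3:**
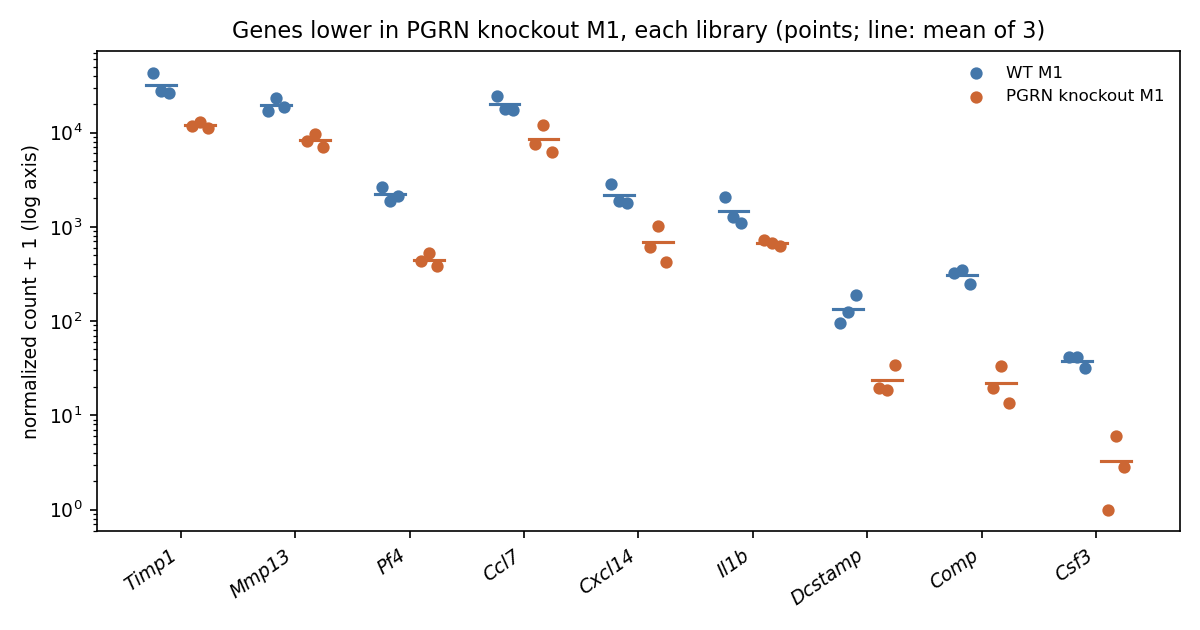
Normalized counts plus 1 on a log axis for 9 genes that fell in PGRN knockout M1, with 1 point per library and a line at the mean of 3. In each gene all orange points (knockout) are below all blue points (WT M1), and Csf3 rests on a few reads per library.

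Osteoclast and cell fusion genes split. Dcstamp, needed for the fusion of macrophages and osteoclasts, was 93.6, 125 and 186 normalized counts in WT and 18.4, 17.4 and 33.0 in the knockout (-2.50 ± 0.45, adjusted p = 0.000539). Its partner gene Ocstamp (-2.20 ± 0.46, adjusted p = 0.00194) and the osteoclast receptor gene Oscar (-2.20 ± 0.62, adjusted p = 0.011) fell with it, and so did the AP-1 factor gene Fosl1 (-0.89 ± 0.15, adjusted p = 0.000383). The acid-secreting members Atp6v0d2 and Clcn7 and the factor gene Mitf rose, as given above. In all, 5 of 18 tested rose (27.8%) and 6 fell (33.3%), beside 23.6% and 16.8% of all genes tested.

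Several genes of protein folding in the endoplasmic reticulum fell. Among unfolded protein response genes 3 of 22 tested members rose, 10 fell and 9 did not pass (median -0.08, 1 of the 3 and 6 of the 10 with the 2 M1 groups alone). The disulfide isomerase gene Pdia6 was 9833, 7795 and 8750.3 normalized counts in WT and 5389, 5735 and 5242 in the knockout (-0.68 ± 0.09, adjusted p = 2.6e-05), and the chaperone gene Hsp90b1 was 23023, 19261 and 20256 normalized counts in WT and 14289, 14460.0 and 13876 in the knockout (-0.55 ± 0.07, adjusted p = 3.65e-05). Each was lower in all 3 knockout libraries. Calr (-0.45 ± 0.07, adjusted p = 0.000306), Manf (-0.70 ± 0.12, adjusted p = 0.000339) and Creld2 (-0.65 ± 0.13, adjusted p = 0.00139) fell too, while Ern1, the gene of the stress sensor IRE1, was among the 3 that rose (0.84 ± 0.17, adjusted p = 0.00125). Hspa5, the main chaperone, passed (-0.21 ± 0.07, adjusted p = 0.0212) but not with the 2 M1 groups alone (adjusted p = 0.14).

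Part of the integrated stress response genes rose in M1. This response slows translation and, through the factor ATF4, raises genes of amino acid supply. Among its members 10 of 25 tested members rose, 0 fell and 15 did not pass (median 0.27), 7 of the 10 with the 2 M1 groups alone, and without WT replicate 1 15 were higher and 1 lower. Mthfd2, of mitochondrial folate metabolism, was 1855, 1584 and 1609 normalized counts in WT and 3143, 2714 and 3186 in the knockout (0.84 ± 0.09, adjusted p = 4.46e-06). The tRNA synthetase gene Aars was 6261, 6616 and 6211 normalized counts in WT and 9845, 8979 and 9947 in the knockout (0.59 ± 0.07, adjusted p = 2.56e-05), and Sesn2, a leucine sensor that restrains mTORC1, was 909.7, 999 and 987 normalized counts in WT and 1520.1, 1429 and 1418 in the knockout (0.59 ± 0.08, adjusted p = 5.17e-05). The groups did not overlap in these 3. Trib3 rose (0.76 ± 0.20, adjusted p = 0.00728), and Chac1 passed (0.70 ± 0.19, adjusted p = 0.00903) but not with the 2 M1 groups alone (adjusted p = 0.0765). Atf4 itself did not pass (0.08 ± 0.12, adjusted p = 0.617), though it did without WT replicate 1 (0.27, adjusted p = 0.00954).

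The same list separated M1 from M2. The knockout effect in M1 was set against that in M2 as a difference of the 2 effects, which share no library, and 338 of 13142 genes passed (2.57%), 143 with a more positive effect in M1 (1.09%) and 195 with a more negative one (1.48%). With a replicate block within genotype 1056 genes passed, 437 and 619 in these directions, and after thinning to the shallowest library 162. In M2 alone 4585 genes passed (34.9%), 2605 higher (19.8%) and 1980 lower (15.1%). Of the 25 integrated stress response genes 11 differed, all more positive in M1, and the median effect was 0.27 in M1 and -0.25 in M2. In M2, 2 of the 25 rose and 12 fell, so the difference holds falls in M2 as well as rises in M1. In M2, Mthfd2 was 2185, 2119 and 2182 normalized counts in WT and 1927, 1672 and 1876 in the knockout (-0.25 ± 0.09, adjusted p = 0.0342), so that its effect was lower there, and the difference was 1.09 ± 0.12, adjusted p = 0.000268. The difference was 0.95 ± 0.16, adjusted p = 0.00767 for Slc7a5, an amino acid transporter gene, 1.45 ± 0.27, adjusted p = 0.0108 for Chac1, which degrades glutathione, and 1.25 ± 0.28, adjusted p = 0.0277 for the pseudokinase gene Trib3. The effects in M2 were -0.69 for Slc7a5, -0.75 for Chac1 and -0.49 for Trib3. The lysosome genes behaved otherwise. Over the 4 lists 1 of 105 differed, Clcn7 (0.57 ± 0.15, adjusted p = 0.0496), and the medians were 0.49 in M1 and 0.50 in M2. A difference that did not pass does not show that effects were equal.

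Further genes differed between M1 and M2. Gpr65, a proton-sensing receptor gene, was 1480.5, 1564 and 1536 normalized counts in WT and 1907, 1559 and 2124 in the knockout in M1, with overlapping groups (0.28 ± 0.12, adjusted p = 0.0825), and 1158, 1173 and 1210.0 normalized counts in WT and 247, 246 and 299 in the knockout in M2, a fall of 4.48-fold (-2.16 ± 0.12, adjusted p = 1.92e-08). The difference was 2.44 ± 0.17, adjusted p = 3.94e-06. Cst7, an inhibitor of lysosomal proteases, rose in M1 (0.65 ± 0.12, adjusted p = 0.00049) and fell in M2 (-0.64 ± 0.12, adjusted p = 0.000667), with a difference of 1.28 ± 0.16, adjusted p = 0.00108. Cd9 fell in M1, as given above, and rose in M2 (0.48 ± 0.11, adjusted p = 0.00283; difference -1.15 ± 0.15, adjusted p = 0.00108). Tfec, the macrophage member of the MiT/TFE family, rose in M1 (0.68 ± 0.13, adjusted p = 0.000766) and fell in M2 (-0.45 ± 0.13, adjusted p = 0.014; difference 1.13 ± 0.18, adjusted p = 0.00505). Sqstm1 rose more in M1 than in M2 (difference 0.78 ± 0.11, adjusted p = 0.00193), and Dcstamp fell in M1 and did not pass in M2 (0.62 ± 0.45, adjusted p = 0.293; difference -3.13 ± 0.63, adjusted p = 0.018). The number of genes that differed was 150 to 882 when 1 library was left out, 882 without WT M1 replicate 1, and 178 when the fit held just the 4 groups of the contrast. It was 150 and 155 without PGRN knockout M1 replicates 1 and 3, 222 without WT M2 replicate 2, and 175 and 151 without PGRN knockout M2 replicates 2 and 3.

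**Figure D4:**
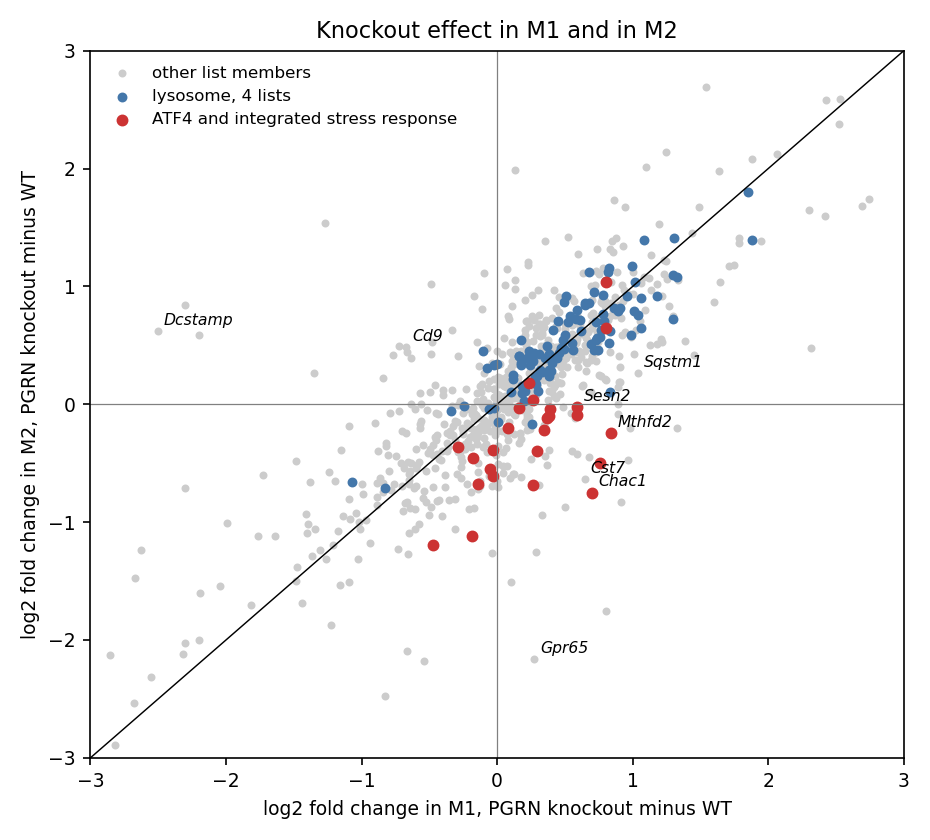
Log2 fold changes of the PGRN knockout against WT in M1 (horizontal) and in M2 (vertical) for tested list members and named genes without Grn, of which 15 of 847 lie outside the axes. Lysosome genes (blue) lie along the line of equal effects, and integrated stress response genes (red) lie mostly below it.

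The 14-3-3ε knockout in M1 shares its WT libraries with this comparison, so its values are given side by side only. Over the 4 lysosome lists 6 of 105 members were higher and 36 lower there (median -0.17), against 19.6% higher and 16.2% lower of all genes (35.8% in all). Psap was 124437, 127565 and 134815 in its 3 libraries (-0.23 ± 0.10, adjusted p = 0.0886), Gpnmb 41858, 59956 and 59426 (-0.29 ± 0.20, adjusted p = 0.256) and Rragd 35.1, 53.8 and 42.3 (-0.31 ± 0.18, adjusted p = 0.186), and none of the 3 passed. Hal was 199, 62.4 and 133 and rose in both knockouts (4.27 ± 0.73, adjusted p = 0.00132), and of the 17 stroma markers 6 were higher and 1 lower (median 0.46). Some other lists had medians of the same sign in both knockouts. In the 14-3-3ε knockout 12 of 25 cholesterol synthesis and uptake genes were higher and 2 lower (median 0.37). Of 18 LXR targets 8 were higher and 2 lower (median 0.19). Of 21 arginine, nitric oxide, itaconate and oxidant enzymes 8 were higher and 3 lower (median 0.43). Of 19 chemokines 2 were higher and 9 lower (median -0.55), beside 0 higher and 9 lower in the PGRN knockout (median -0.56).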

How the data were processed

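Total RNA of bone marrow-derived macrophages was sequenced. STAR, RSEM 1.3.1 and DESeq2 are named, per the submitters' processing notes, for alignment, quantification and normalization. The notes name build GRCh38, but the gene IDs are mouse, so positions here are GRCm38 from GENCODE M21 or RefSeq. The authors deposited log2 values (normalized count plus 1) for 43309 genes. Turned back, 100% are whole multiples of 1 step per library (within 0.1 read), which gave reads and depth. Genes with at least 1 CPM in 3 of the 6 libraries (13142) were tested with limma 3.58.1 (R 4.3.3; trend, robust) in 1 fit of 6 groups, Benjamini-Hochberg over all genes. The pseudocount of 1 is that of the deposited values, so fold changes of low genes are understated. On simulated data with 200 changed genes 91% of 2-fold and 100% of 4-fold changes were recovered and 31 of 12942 unchanged genes passed. The simulation used the same dispersion of 0.02 for every gene and library. It does not model the wider spread of the WT M1 libraries, so it gives no false-call rate for the real comparison. Tables and figures used Python 3.11.15 with pandas 2.3.3 and matplotlib 3.10.9. Alternatives were other pseudocounts, filters, scalings, groups in the fit, replicate blocks, voom, thinning and leaving out each library. Library quality weights and the block within genotype were chosen after seeing the data.

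The members and lists were chosen with earlier results of these data known. The genes named are 34 key genes, of which only some are reported, then, among called genes with no overlap, a mean of at least 5 CPM and a name that is not that of a clone or prediction, the 12 that rose most and the 12 that fell most, and up to 4 members of each list by smallest p, of which those that teach the list are reported. Chosen after their values were seen were Gpr65, Cd9, Cst7, Tfec, Tgfbi, Cfb, Dcstamp, Ocstamp, Oscar, Trib3, Chac1, Psat1, Slc7a5, Asns, Atf4, Il1a, Ctsd, Lamp1, Cln3, Lipa, Gas6, C2, Nr1h3, Manf, Creld2, Hspa5, Tlr8, Tlr9, Spp1, Col1a1, Ern1, Lyz2, Itgam, Tfrc, Ctsk, Tpp1, Npc1 and Slc38a9, with Xist, Ddx3y and Ly6g among the library checks. Promoters were read from RefSeq on GRCm38.p6. Some genes that the rule names are not reported here.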

Additional observations from a re-analysis of the deposited data

Results flagged for a closer look

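These genes have a PGRN knockout effect that differed between M1 and M2 by the test of the difference in limma, given as the log2 effect in M1 minus that in M2. Among integrated stress response genes the difference was positive for Aars 0.68 (adjusted p = 0.00362), Asns 0.68 (adjusted p = 0.038), Chac1 1.45 (adjusted p = 0.0108), Mthfd2 1.09 (adjusted p = 0.000268), Nars 0.43 (adjusted p = 0.0282), Psat1 0.56 (adjusted p = 0.0135), Sesn2 0.62 (adjusted p = 0.0103), Slc7a5 0.95 (adjusted p = 0.00767) and Trib3 1.25 (adjusted p = 0.0277). Outside that list it was positive for Abcg1 0.61 (adjusted p = 0.018), Arl4c 0.95 (adjusted p = 0.000474), Cfb 2.56 (adjusted p = 0.00872), Clcn7 0.57 (adjusted p = 0.0496), Cst7 1.28 (adjusted p = 0.00108), Cyc1 0.45 (adjusted p = 0.0261). It was positive as well for G6pdx 0.59 (adjusted p = 0.0439), Gpr65 2.44 (adjusted p = 3.94e-06), Sdhb 0.69 (adjusted p = 0.0223), Sqstm1 0.78 (adjusted p = 0.00193), Tfec 1.13 (adjusted p = 0.00505) and Tgfbi 1.74 (adjusted p = 0.00872). It was negative for Cd22 -0.73 (adjusted p = 0.0272), Cd9 -1.15 (adjusted p = 0.00108), Dcstamp -3.13 (adjusted p = 0.018), Itgb5 -0.67 (adjusted p = 0.00153), Mpeg1 -0.89 (adjusted p = 0.0243). It was also negative for Ocstamp -2.78 (adjusted p = 0.0368), Pros1 -0.72 (adjusted p = 0.00855) and Serpina3h -2.07 (adjusted p = 0.0223). For Grn, low in every knockout library, the difference of 1.90 (adjusted p = 0.00658) goes with a residual level of 497, 212 and 231 normalized counts in the M1 and 24.4, 23.9 and 32.2 in the M2 knockout libraries. No test for a single outlying library was made within groups of 3.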

How the results depend on the processing

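For M1 the count of 5300 genes was 2508 with only the 2 groups compared in the fit, 1412 higher and 1096 lower. Scaling by library totals gave 1873 higher genes and moved the median of all genes from 0.05 to -0.04, and library quality weights gave 1444 lower genes. Leaving out 1 library at a time gave 3917 to 6059 genes, 2301 to 3507 of them higher and 1616 to 2552 lower. For M2, leaving out single libraries gave 3262 to 4198 in place of 4585. For the difference between M1 and M2, 338 genes became 178 with only its groups in the fit, 162 after thinning to the shallowest library, 1056 with a replicate block within genotype, and 150 to 882 without single libraries. Of 220 named genes that were tested, 4 changed sign under some alternative (Atf4, Cxcl10, Itgam and Tnfrsf1a). Of these 4, 0 passed in the main fit and 0 passed with the other sign. Atf4 passed with its main sign without WT replicate 1 (adjusted p = 0.00954). Of the 220, 23 no longer passed with the 2 groups alone and 17 with library quality weights. Thinning turned the sign of 1 of the 5300 genes. With the replicate number as a block the counts were 5439 in M1, 4783 in M2 and 379 for the difference. Samples of WT and knockout M1 with the same number did not deviate together (r = -0.163, -0.157 and 0.0537). M1 and M2 libraries of the same genotype and number gave r = 0.438, 0.022 and -0.315 in WT and 0.323, 0.424 and 0.0842 in the knockout, so a pairing by number is not established, and the WT libraries numbered 1 share high Xist. The planned edgeR test on recovered reads was not run; voom on those reads gave 4526 genes in M1. The depth of 5.16 M reads in WT replicate 1 limits low genes, 1 read there being 4.46 normalized counts.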

Other observations

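Among glycolysis and HIF1 target genes 7 of 31 tested members rose, 12 fell and 12 did not pass (median -0.12). These are 22.6% higher and 38.7% lower, beside 23.6% and 16.8% of all genes tested, with 4 and 8 remaining with the 2 M1 groups alone. Of respiratory chain genes 7 of 35 tested members rose, 2 fell and 26 did not pass, and 1 and 0 remained with the 2 M1 groups alone, and 5 and 0 passed without WT replicate 1. Their median was -0.14, and 0.04 without WT replicate 1, and 18 of the 35 have a longest transcript under 1500 bases. Scaling by library totals gave 1 higher and 10 lower respiratory chain genes, so no direction is given for them.

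Cell cycle genes passed rarely in M1, where 2 of 43 rose and 6 fell (1 and 2 with the 2 M1 groups alone, 4 and 3 without WT replicate 1), and in M2 0 rose and 27 fell, while 0 of the 43 differed between M1 and M2 by the test of the difference. Among M2 marker genes 7 of 24 tested members rose, 6 fell and 11 did not pass in M1 (6 and 2 with the 2 M1 groups alone), and among chemokine receptors 3 of 10 tested members rose, 3 fell and 4 did not pass.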
